A study of Mus musculus with 22 samples.

Results

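T-bet+ type 2 conventional dendritic cells (cDC2s) of the spleen were compared with T-bet+ cDC2s of the mesenteric lymph nodes (MLN) by bulk RNA-seq across all genes. The comparison used every RNA-seq library that the sample labels give as T-bet+ cDC2, which is 3 libraries of pooled spleen and 2 of pooled MLN, or 5 of the 22 samples of the series. The other 11 RNA-seq libraries hold T-bet- cDC2s (3 of spleen and 2 of MLN) and cDC1s (3 of each tissue), and the other 6 samples are ATAC-seq of spleen. All mice carried the Tbx21RFP-cre allele, a homozygous reporter in which red fluorescent protein (RFP) is made where the T-bet gene *Tbx21* is expressed. The study used mice of both sexes at 6 to 10 weeks, with no treatment that the labels name. The sex of each pool is not given in the sources used here. The Y-linked genes *Kdm5d* and *Uty* had at most 1 count in any of the 16 libraries. The X-inactivation transcript *Xist* was present in all of them. Cells of a pair of mice were pooled for each library. T-bet+ cDC2s were sorted as RFP+ CD11b+ XCR1- cells among lineage-negative CD64- Ly6C- CD11c+ MHCII+ cells, so *Tbx21* was in part selected by the sort. The MLN gate did not separate resident from migratory DCs. The labels give each library a number, and nothing in them says that libraries of the 2 tissues came from the same mice.

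Conventional DCs take up antigen and present it to T cells, and cDC2s are the branch that presents mostly to CD4+ T cells. T-bet is a transcription factor best known from type 1 helper T cells and innate lymphocytes. The spleen filters blood, and its cDC2s that lie next to the marginal zone depend on signals through the Notch2 receptor. The MLN drains the intestine, so its DCs are a mixture of cells that live in the node and cells that arrive from the gut in lymph. Arriving DCs carry the homing receptor Ccr7, a maturation program with the chemokines Ccl17 and Ccl22, and, in gut DCs, enzymes that make retinoic acid.

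Reads counted on genes were 26373909, 27299012 and 24242506 in the spleen libraries and 22881792 and 23815323 in the MLN libraries, and 16795 of the 34047 listed genes had enough counts to be tested. Values are counts divided by each library's TMM-scaled total, on the scale of the mean library (normalized counts), which depend on gene length and are compared only within a gene. Log2 fold changes are spleen over MLN with their standard error (SE), so values above 0 are higher in spleen. A gene is called where the Benjamini-Hochberg adjusted p of edgeR's quasi-likelihood test is under 0.05. Fewer cells of a type and less RNA per cell cannot be told apart in such bulk libraries. A property of the libraries related to GC content followed the tissue exactly in these 5 libraries, though not in all 16. Over 7626 expressed genes, the deviation of a library from the mean of all 16 correlated with the GC content of the most GC-rich 100 bases of the transcript (Spearman's rho across genes), at 0.23, 0.21 and 0.22 in spleen and at -0.22 and -0.25 in MLN. In the other subsets, spleen T-bet- cDC2 replicates 1 and 2 (-0.405 and -0.178) and spleen cDC1 replicate 3 (-0.266) were below 0 too. For some fits below, libraries were sorted into a higher GC class (rho above 0.1) and a lower one. All MLN libraries were in the lower class and the 3 spleen T-bet+ libraries in the higher one. The class term was therefore estimated only within spleen T-bet- cDC2s and spleen cDC1s and carried over to T-bet+ cDC2s. Whether the GC property is technical was not tested. The 2 MLN libraries of T-bet+ cDC2s also stood apart from each other, with *Ccr7* at 53770 normalized counts in replicate 1 and 190860 in replicate 2. The part of the GC property and of this spread in the tissue difference was not tested beyond the fits given beside the results.

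The 4 markers of the T-bet+ subset were present in each of the 5 libraries, and *Dtx1* and *Gpr4* were higher in spleen. *Dtx1*, which encodes the Notch-induced ubiquitin ligase Deltex1, had 7479, 7776 and 8255 normalized counts in spleen and 790 and 351 in MLN (log2 fold change 3.78 ± 0.53, adjusted p = 0.0027). All 3 spleen libraries were close together and at least 9-fold above either MLN library. *Gpr4*, a receptor that senses extracellular protons, had 5047, 3682 and 3241 in spleen and 1149 and 1079 in MLN (log2 fold change 1.84 ± 0.33, adjusted p = 0.0085). *Tbx21* itself had 571, 615 and 425 in spleen and 178 and 72.5 in MLN, without overlap between tissues, but the difference did not pass the test (log2 fold change 2.1005 ± 0.77, adjusted p = 0.11). It passed in 5 of 15 alternatives, with a lowest adjusted p of 0.0081, and its log2 fold change was 0.20 with the GC class of the libraries as a term. *Dtx1* and *Gpr4* lost their call without MLN replicate 2 (adjusted p = 0.066 and 0.16), and *Gpr4* with the GC class (adjusted p = 0.076). *Cr2*, which encodes complement receptor 2, overlapped between tissues at 181, 109 and 215 in spleen and 138 and 53.4 in MLN (log2 fold change 0.82 ± 1.10, adjusted p = 0.66). Both T-bet+ groups were above T-bet- cDC2s and cDC1s of their own tissue for *Tbx21* and *Dtx1*, whose means were 125 ± 74.5 (SD, n = 2) and 570 ± 310 in MLN T-bet+ cDC2s against 18.0 ± 6.65 and 61.7 ± 16.3 in MLN T-bet- cDC2s. *Gpr4* did not follow this order, since its mean in spleen cDC1s was 5288 ± 373 (SD, n = 3), above the 3990 ± 942 of spleen T-bet+ cDC2s. *Hes1* and *Ccr7* in the plot are described further on. Beyond the 4 markers, 1 of 15 general cDC2 markers was called (*Cd1d1*, higher in MLN), while 14 of 15 lay on the spleen side (median log2 fold change 0.71), with a summed level of the list of 90700 to 105000 CPM (each library's counts scaled to a common total) in spleen and 51800 and 84700 in MLN.

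**Figure D1:**
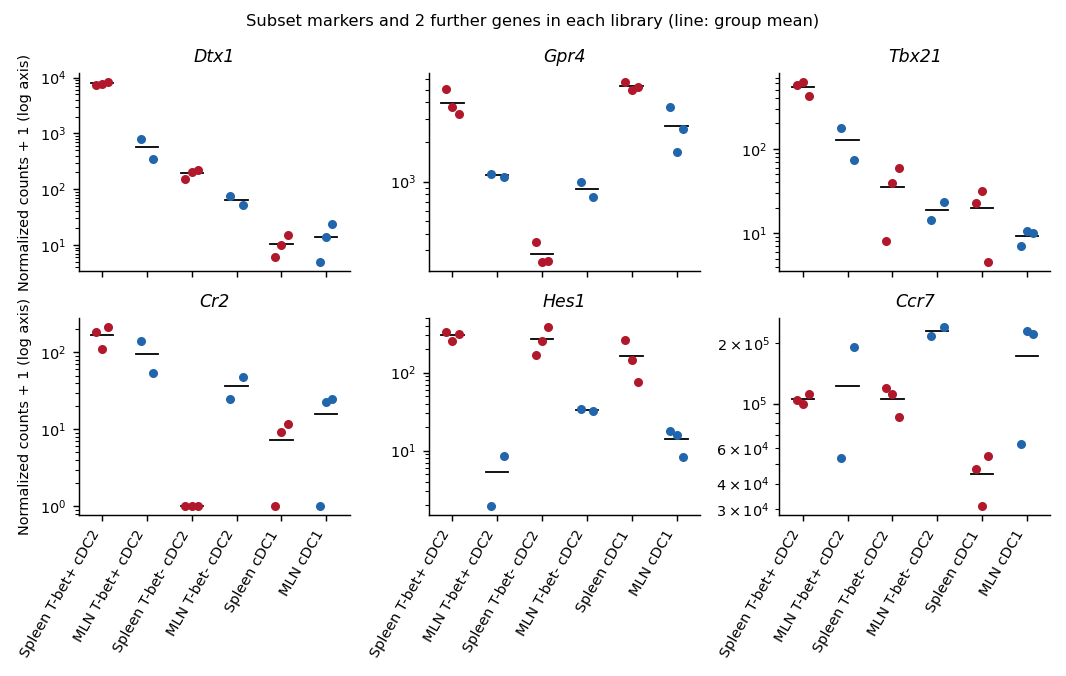
Normalized counts plus 1 (log axis) of the 4 markers and of *Hes1* and *Ccr7* in each library of the 6 RNA-seq groups, with spleen in red, MLN in blue and group means as lines. *Dtx1* falls from 7836 in spleen to 570 in MLN T-bet+ cDC2s, *Hes1* from 300 to 4.28, and the 2 MLN libraries of *Ccr7* lie on either side of the spleen libraries.

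The promoters of 3 of the 4 markers, those whose libraries did not overlap between tissues, and of the 2 chemokine genes that mark the MLN cells, are shown so that the sequence next to each gene can be read beside its level. Each line gives the 250 bases before the RefSeq start of the gene, on the gene's strand in GRCm38.p6. Capitals mark TGGGAA, the core recognized by Rbpj (the DNA-binding partner of Notch), on either strand, here written as TTCCCA.
Dtx1 promoter, chr5:120711670-120711919, minus strand: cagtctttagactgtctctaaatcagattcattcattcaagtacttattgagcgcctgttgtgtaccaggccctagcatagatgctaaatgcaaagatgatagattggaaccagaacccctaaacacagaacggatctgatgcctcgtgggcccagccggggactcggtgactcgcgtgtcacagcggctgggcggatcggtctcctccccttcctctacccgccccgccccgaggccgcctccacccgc
Gpr4 promoter, chr7:19212288-19212537, plus strand: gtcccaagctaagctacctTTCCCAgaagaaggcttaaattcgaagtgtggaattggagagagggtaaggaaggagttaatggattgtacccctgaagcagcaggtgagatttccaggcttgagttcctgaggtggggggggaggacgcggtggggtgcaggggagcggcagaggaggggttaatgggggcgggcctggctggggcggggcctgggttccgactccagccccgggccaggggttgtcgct
Tbx21 promoter, chr11:97115332-97115581, minus strand: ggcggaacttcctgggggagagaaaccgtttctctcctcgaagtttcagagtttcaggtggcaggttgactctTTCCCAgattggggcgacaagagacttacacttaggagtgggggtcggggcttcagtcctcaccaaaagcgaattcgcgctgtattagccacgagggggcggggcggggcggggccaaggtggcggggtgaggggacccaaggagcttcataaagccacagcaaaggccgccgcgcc
Ccl22 promoter, chr8:94745434-94745683, plus strand: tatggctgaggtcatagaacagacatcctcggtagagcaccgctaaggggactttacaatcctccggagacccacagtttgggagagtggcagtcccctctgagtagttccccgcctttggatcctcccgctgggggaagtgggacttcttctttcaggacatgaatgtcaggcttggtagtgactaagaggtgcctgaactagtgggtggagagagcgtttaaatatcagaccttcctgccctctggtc
Ccl17 promoter, chr8:94810203-94810452, plus strand: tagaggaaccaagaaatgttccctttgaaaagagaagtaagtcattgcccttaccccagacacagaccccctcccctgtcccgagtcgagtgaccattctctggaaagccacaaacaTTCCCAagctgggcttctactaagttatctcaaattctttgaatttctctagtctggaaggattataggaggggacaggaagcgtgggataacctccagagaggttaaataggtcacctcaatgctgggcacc
The core was found 231 bases before the start of *Gpr4*, 177 before that of *Tbx21* and 133 before that of *Ccl17*, and not in these windows of *Dtx1* or *Ccl22*. It stood in 20.6% of the 10093 promoters of tested genes that RefSeq gave, so a match alone is common. *Ccl22*, *Cx3cl1* and *Ccl17* lie in this order on chromosome 8, and all 3 were called higher in MLN, as described further on.

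Across all genes, 855 of 16795 were called (5.09%), with 219 higher in spleen (1.3%) and 636 higher in MLN (3.79%). These shares are the background for the counts of called list members that follow. The median absolute log2 fold change was 2.40 among the first and 2.37 among the second, and the median over all genes tested was -0.003. Library values of the 2 tissues did not overlap for 49.9% of all genes, so non-overlap by itself separates little with 3 libraries against 2. MLN replicate 2 was above replicate 1 in 556 of the 636 genes higher in MLN, with a median ratio of 2.24, and in 45 of the 219 genes higher in spleen. Without that library 10 genes were called higher in spleen and 26 higher in MLN, while 219 and 629 of the original genes kept their direction. With the GC class of each library as a term, 21 and 42 were called, and all 855 kept their direction. Libraries did not overlap for any of the 219 spleen-high genes or for 627 of the 636 MLN-high genes. A kept direction in refits of the same libraries therefore adds little. Spleen-high genes had a median GC content of 75.0% in their richest 100 bases and MLN-high genes 68.0%, against 72.0% for expressed genes. GC values were matched for 93.6%, 80.2% and 94.2% of these sets. Of all calls 25.6% were higher in spleen, and the share was 39.6% with DESeq2 and 48.8% with no filter on low counts. In a fit of the 5 libraries alone the balance turned, with 1651 genes higher in spleen (56.2%) and 1286 in MLN, so the balance between the directions depended on the libraries fitted.

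**Figure D2:**
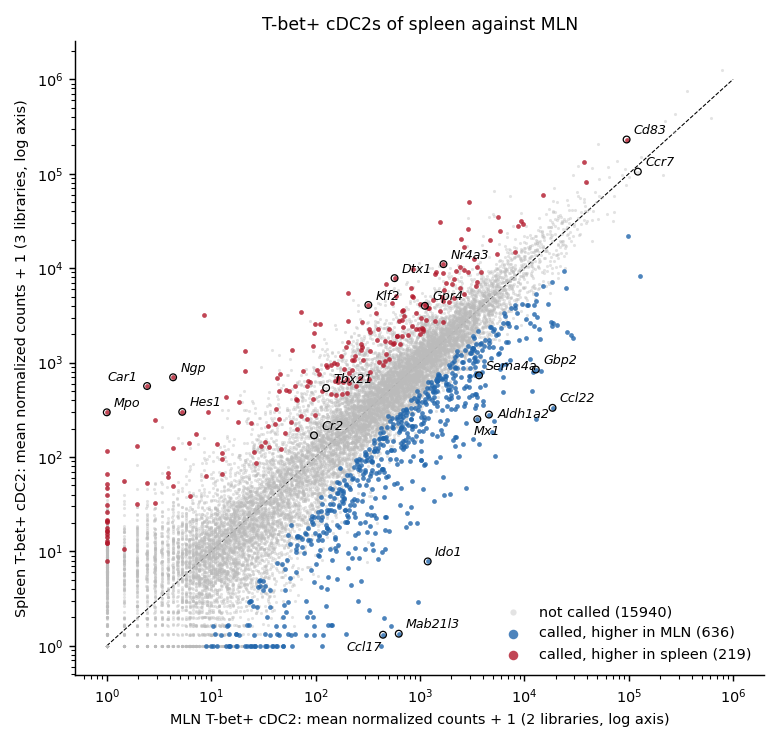
Mean normalized counts plus 1 of every tested gene in MLN (x axis, 2 libraries) and spleen (y axis, 3 libraries) T-bet+ cDC2s, both on log axes, with 219 genes called higher in spleen in red and 636 called higher in MLN in blue. *Dtx1*, *Klf2* and *Nr4a3* lie well above the dashed line of equality, *Ccl22*, *Ido1* and *Mab21l3* far below it, and *Ccr7* close to it.

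A pair of Notch target genes, *Dtx1* and *Hes1*, was higher in spleen T-bet+ cDC2s, although the Notch list as a whole was balanced. *Hes1*, a transcriptional repressor induced by Notch, had 330, 255 and 313 normalized counts in spleen and 0.931 and 7.63 in MLN (log2 fold change 6.09 ± 0.81, adjusted p = 0.0021). It kept its call under all 15 alternatives, and *Dtx1* under 14. These were the 2 called genes among 33 tested Notch pathway genes, whose median log2 fold change was -0.14. That count is near the share of 5.09% called over all genes. *Notch2*, the receptor on which splenic cDC2s depend, had 2066, 2498 and 2021 in spleen and 2068 and 1230 in MLN and was not called (log2 fold change 0.41 ± 0.47, adjusted p = 0.6). *Hes1* was also higher in the spleen in the other subsets, with log2 fold changes of 3.06 in T-bet- cDC2s and 3.61 in cDC1s.

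Of 30 tested immediate early genes, which cells switch on within minutes of a stimulus, 5 were called higher in spleen (*Fosl2*, *Nr4a2*, *Nr4a3*, *Klf2* and *Klf4*) and 0 higher in MLN, with a median log2 fold change of 1.88. *Nr4a3*, a nuclear receptor that follows antigen-receptor and cytokine signals, had 13368, 10646 and 9062 normalized counts in spleen and 1679 and 1680 in MLN (log2 fold change 2.71 ± 0.48, adjusted p = 0.0082). *Nr4a2* had 24415, 23007 and 14093 in spleen and 3157 and 1743 in MLN (log2 fold change 3.07 ± 0.71, adjusted p = 0.027). *Klf2*, a factor of quiescence and trafficking, had 4494, 3225 and 4499 in spleen and 367 and 272 in MLN (log2 fold change 3.67 ± 0.89, adjusted p = 0.033). *Klf4*, needed for a part of the cDC2 lineage, had 2833, 3528 and 4375 in spleen and 883 and 478 in MLN (log2 fold change 2.39 ± 0.56, adjusted p = 0.029). In each of these genes the lowest spleen library was at least 3-fold above the highest MLN library. With the GC class as a term 0 of the 30 were called and the median was 0.37, and without MLN replicate 2 again 0, with a median of 1.58. Under the GC offset, which takes out a smooth curve of each library on GC content, 8 were called higher in spleen and the median was 1.46. Tissue and GC class cannot be told apart in these 5 libraries. At an unadjusted p under 0.05 the main test held 20 of the 30, and DESeq2 called 14 higher in spleen and 1 higher in MLN. Among 16 heat shock and dissociation genes, which rise during tissue digestion, 0 were called. In this list 12 lay on the spleen side (median log2 fold change 0.53). Its sum was 5250 to 10600 CPM in spleen and 5760 to 6210 in MLN. The part of tissue digestion in the immediate early genes was not tested.

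Of 74 tested DC transcription factors 7 were called higher in spleen and 2 higher in MLN, and 0 in either direction with the GC class as a term or without MLN replicate 2. *Hic1*, a zinc-finger repressor, had 3052, 2877 and 1659 normalized counts in spleen and 147 and 48.7 in MLN (log2 fold change 4.69 ± 1.27, adjusted p = 0.048), and *Nfil3*, a factor of DC development and of the circadian clock, had 4654, 3248 and 2122 in spleen and 373 and 384 in MLN (log2 fold change 3.14 ± 0.84, adjusted p = 0.047). *Ahr*, the aryl hydrocarbon receptor that senses dietary and microbial ligands, had 5204, 4531 and 3004 in spleen and 626 and 462 in MLN (log2 fold change 2.96 ± 0.69, adjusted p = 0.027). Its own repressor *Ahrr* went the other way, with 137, 59.4 and 102 in spleen and 694 and 2451 in MLN (log2 fold change -3.98 ± 0.68, adjusted p = 0.0075). *Ikzf4*, which encodes the Ikaros-family factor Eos, had 24.5, 13.9 and 26.7 in spleen and 129 and 632 in MLN (log2 fold change -4.13 ± 0.67, adjusted p = 0.0056). With the GC class as a term the log2 fold changes of *Hic1*, *Nfil3* and *Ahr* were 1.42, 0.81 and 1.282, with adjusted p of 0.51, 0.66 and 0.42. *Hic1* and *Nfil3* lost their call without any single library, and *Ahr* without any but spleen replicate 3. *Ahrr* and *Ikzf4* lost theirs with the GC class (-3.74 and -3.68) and without MLN replicate 2 (-2.79 and -2.56). *Dbp*, a clock output gene, was the other called member of 16 circadian genes, at 176, 177 and 184 in spleen and 65.2 and 35.3 in MLN (log2 fold change 1.83 ± 0.50, adjusted p = 0.049), and had a log2 fold change of 0.91 with the GC class as a term. The circadian median was 1.04 and turned to -0.41 with that term.

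Of 40 tested cytokine genes 3 were called higher in spleen and 5 higher in MLN, beside 1.3% and 3.79% of all genes. The cytokine counts were 0 and 0 with the GC class as a term and 0 and 3 with the replicate block. *Il1b*, the inflammatory cytokine interleukin-1 beta, had 143860, 134300 and 121950 normalized counts in spleen and 43157 and 31359 in MLN (log2 fold change 1.84 ± 0.48, adjusted p = 0.043). *Tgfb1*, an immunosuppressive cytokine, had 3196, 2936 and 3152 in spleen and 995 and 398 in MLN (log2 fold change 2.15 ± 0.55, adjusted p = 0.041), and *Areg*, an epidermal growth factor receptor ligand that acts in tissue repair, had 385, 263 and 250 in spleen and 14 and 2.86 in MLN (log2 fold change 5.13 ± 1.19, adjusted p = 0.028). The MLN-high members were *Il6*, *Il7*, *Il15*, *Il27* and *Il33*, which are mostly T cell survival and polarizing cytokines. *Il15* had 226, 209 and 307 in spleen and 527 and 3114 in MLN (log2 fold change -2.88 ± 0.54, adjusted p = 0.011). *Il6* had 158, 85.4 and 122 in spleen and 387 and 972 in MLN (log2 fold change -2.48 ± 0.41, adjusted p = 0.0065), and *Il7* had 12.7, 30.6 and 42.1 in spleen and 97.8 and 584 in MLN (log2 fold change -3.58 ± 0.87, adjusted p = 0.033). *Il33* was at 0 in all spleen libraries and at 10.2 and 84.9 in MLN (at least 16.2-fold higher in MLN, adjusted p = 0.042, with each library at 0 taken at a floor of 3 counts). The summed level of the list was 6410 to 6860 CPM in spleen and 2200 to 2950 in MLN, of which *Il1b* makes up most.

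Of 26 tested chemokine genes 2 were called higher in spleen and 5 higher in MLN, with a median log2 fold change of -1.23 (-1.13 with genes at 0 in a tissue set at their bound). Both with the GC class as a term and without MLN replicate 2, 0 were called higher in spleen and 2 higher in MLN. *Ccl3* and *Ccl4*, inflammatory chemokines that attract monocytes and T cells, were higher in spleen, at 10766, 8830 and 11020 in spleen and 2648 and 2190 in MLN for *Ccl3* (log2 fold change 2.08 ± 0.38, adjusted p = 0.0098) and 28276, 20282 and 26194 in spleen and 7450 and 4273 in MLN for *Ccl4* (log2 fold change 2.09 ± 0.52, adjusted p = 0.037). *Ccl22*, a ligand of the chemokine receptor Ccr4 on T cells, had 359, 313 and 320 in spleen and 9234 and 28037 in MLN (log2 fold change -5.82 ± 0.47, adjusted p = 1.0e-04), the lowest p of all genes. *Ccl17*, the other Ccr4 ligand, had 0, 0.928 and 0 in spleen and 214 and 670 in MLN (ratio 1349, counting interval 242 to 53330, adjusted p = 1.0e-03). Each MLN library was at least 20-fold above each spleen library for both genes, and both calls held under all 15 alternatives. Such ratios are of counts summed over libraries where 1 group has 1 to 3 counts, with exact 95% intervals that cover counting error only. *Cxcl1*, a neutrophil attractant, had 17.6, 19.5 and 19.5 in spleen and 163 and 370 in MLN (log2 fold change -3.81 ± 0.60, adjusted p = 0.0045), and *Cx3cl1* and *Cxcl16* were also called higher in MLN.

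Among the 39 gene lists, mature migratory DC genes held the most genes called higher in MLN. The lists share some genes and were chosen with earlier results of these data known. Of 44 tested mature migratory DC genes 22 were called higher in MLN and 1 higher in spleen, with a median log2 fold change of -1.83. Besides the Ccr4 ligands these included *Cd40*, *Cd200*, *Il15ra*, *Tnfrsf4*, *Tnfrsf9*, *Serpinb9*, *Socs2*, *Cacnb3* and *Anxa3*. *Arc*, an activity-regulated gene that is induced in migrating skin DCs, had 17.6, 39 and 80.1 normalized counts in spleen and 711 and 4869 in MLN (log2 fold change -5.94 ± 0.91, adjusted p = 0.0044). *Laptm4b*, a lysosomal membrane protein, had 127, 142 and 144 in spleen and 398 and 7020 in MLN (log2 fold change -4.75 ± 0.81, adjusted p = 0.0074). *Cd40*, the receptor through which T cells license DCs, had 4120, 3487 and 4649 in spleen and 6093 and 15205 in MLN (log2 fold change -1.38 ± 0.34, adjusted p = 0.034), and *Birc2*, which encodes the apoptosis inhibitor cIAP1, had 3135, 3220 and 2692 in spleen and 5346 and 21022 in MLN (log2 fold change -2.13 ± 0.52, adjusted p = 0.033). In each of these 4 genes MLN replicate 2 was above replicate 1, by 17.6-fold in *Laptm4b*. The sum of the list was 21900 to 22100 CPM in spleen. MLN replicate 1 was below that range at 17400 CPM and replicate 2 above it at 48800. Without MLN replicate 2 2 of the list were called and its median was -0.56, with 30 of 44 genes on the MLN side, and with the GC class as a term 3 were called and the median was -2.08. Without MLN replicate 1, by contrast, 26 were called and the median was -2.61.

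The receptor that brings DCs to the node did not pass the test. *Ccr7* had 104370, 99323 and 112250 normalized counts in spleen and 53770 and 190860 in MLN (log2 fold change -0.22 ± 0.50, adjusted p = 0.81), so that 1 MLN library was below all spleen libraries and the other above them. It and *Notch2* are outside the rule for named genes and were chosen after their values were seen. The single list member higher in spleen was *Cd83*, a maturation marker that stabilizes MHC class II, at 238130, 248370 and 204730 in spleen and 94060 and 96882 in MLN (log2 fold change 1.27 ± 0.31, adjusted p = 0.033). It was called in 6 of 15 alternatives, lost its call without any single library, and had a log2 fold change of 0.51 under the GC offset (adjusted p = 0.33). Among 27 costimulatory and checkpoint genes *Sema4a*, a semaphorin that costimulates T cells, was higher in MLN at 792, 581 and 821 in spleen and 4320 and 3039 in MLN (log2 fold change -2.33 ± 0.27, adjusted p = 0.002). It was higher in MLN replicate 1 than in replicate 2, and its call held under all 15 alternatives, the GC class among them. *Icos* and *Cd200* were called as well, at 638, 791 and 723 in spleen and 1482 and 1984 in MLN (log2 fold change -1.27 ± 0.27, adjusted p = 0.019) and 469, 582 and 585 in spleen and 962 and 4882 in MLN (log2 fold change -2.42 ± 0.56, adjusted p = 0.027). *Pfkfb3*, which drives glycolysis in activated DCs, had 2585, 2110 and 3422 in spleen and 6830 and 29178 in MLN (log2 fold change -2.73 ± 0.56, adjusted p = 0.016), while 25 of 28 glycolysis genes were not called.

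**Figure D3:**
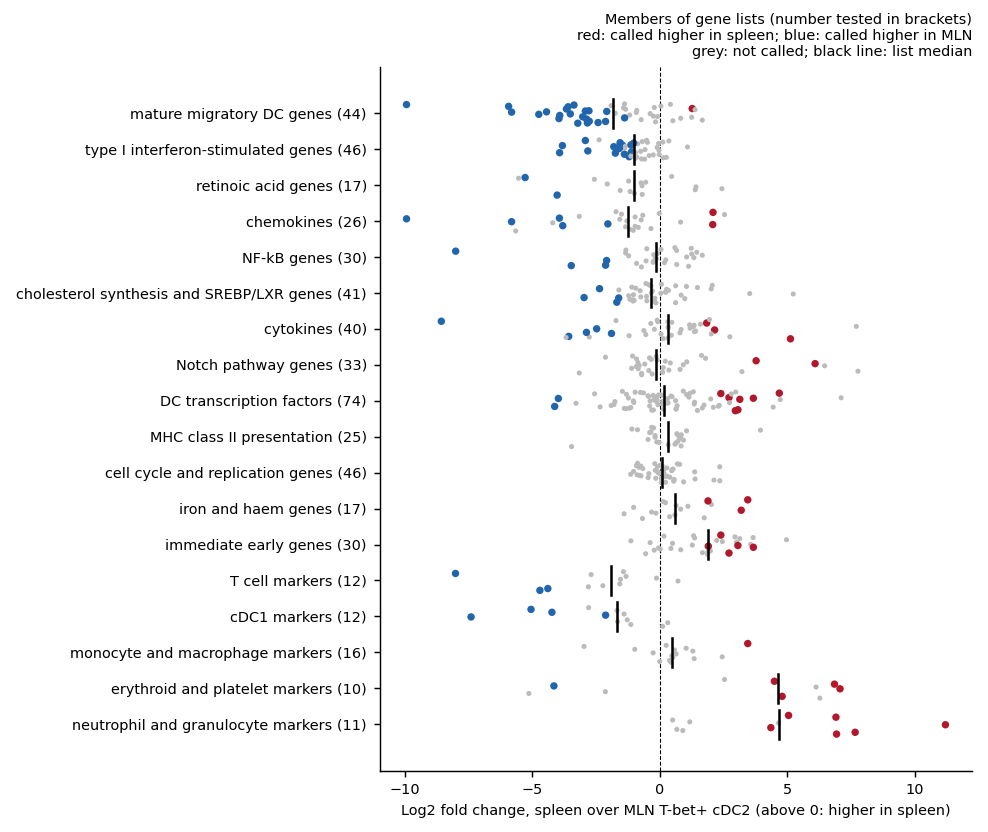
Log2 fold changes (x axis, spleen over MLN) of the tested members of 18 gene lists, with genes called higher in spleen in red, genes called higher in MLN in blue, genes not called in grey and list medians as black lines. Mature migratory DC genes (median -1.83) and type I interferon-stimulated genes (-1.01) lie to the left, immediate early genes (1.88) and neutrophil markers (4.66) to the right, and MHC class II and cell cycle genes around 0.

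Of 17 tested retinoic acid genes 2 were called, both higher in MLN, beside 3.79% of all genes. In this list 13 of 17 lay on the MLN side (median log2 fold change -0.995, or -0.96 with genes at 0 in a tissue set at their bound). *Aldh1a2*, the retinaldehyde dehydrogenase that makes retinoic acid in gut DCs, had 220, 370 and 251 normalized counts in spleen and 1504 and 7652 in MLN (log2 fold change -4.03 ± 0.69, adjusted p = 0.0074). *Stra6*, a retinol transporter, had 0, 1.86 and 10.3 in spleen and 44.7 and 276 in MLN (log2 fold change -5.29 ± 1.16, adjusted p = 0.022). Without MLN replicate 2 0 of the list were called. Outside this list, *Ido1*, which degrades tryptophan and restrains T cells, had 0, 10.2 and 10.3 in spleen and 271 and 2101 in MLN (log2 fold change -7.41 ± 1.07, adjusted p = 0.0034). *Itgb8*, whose integrin releases active TGF-beta, had 19.6, 9.28 and 0 in spleen and 30.7 and 901 in MLN (log2 fold change -5.57 ± 1.283, adjusted p = 0.027), and *Itgae*, which encodes the gut DC integrin CD103, had 15.7, 6.5 and 30.8 in spleen and 246 and 418 in MLN (log2 fold change -4.23 ± 0.68, adjusted p = 0.0054). All 3 spleen libraries lay below both MLN libraries for these 5 genes, and MLN replicate 2 was above replicate 1 in each. Among all 636 MLN-high genes the libraries did not overlap in 627, and replicate 2 was above replicate 1 in 556. *Itgae* is also in the list of cDC1 markers described further on. *Ido1* kept its call under all 15 alternatives. *Aldh1a2*, *Itgae* and *Stra6* lost theirs without MLN replicate 2, with log2 fold changes of -2.41, -3.79 and -3.43, and *Stra6* also without spleen replicate 1 or 2. *Itgb8* lost its call without any single library other than MLN replicate 1, and had a log2 fold change of -1.65 without MLN replicate 2.

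Type I interferon-stimulated genes were the list with the next highest number of genes called higher in MLN. Of 46 tested genes 15 were called higher in MLN and 0 higher in spleen, and 41 of 46 had a log2 fold change below 0 (median -1.01). *Mx1*, a GTPase that blocks viral replication, had 181, 166 and 404 normalized counts in spleen and 1197 and 5890 in MLN (log2 fold change -3.82 ± 0.54, adjusted p = 0.0029). *Gbp2* and *Gbp3*, guanylate-binding proteins that also respond to interferon gamma, had 768, 879 and 883 in spleen and 3906 and 21848 in MLN for *Gbp2* (log2 fold change -3.93 ± 0.60, adjusted p = 0.0044) and 341, 304 and 389 in spleen and 1177 and 4054 in MLN for *Gbp3* (log2 fold change -2.92 ± 0.44, adjusted p = 0.0044). *Ifi44* had 15.7, 13.9 and 50.3 in spleen and 238 and 139 in MLN (log2 fold change -2.83 ± 0.73, adjusted p = 0.042), with MLN replicate 1 above replicate 2. The sum of the list was 2240 to 2410 CPM in spleen and 5010 and 5560 in MLN, so the summed level was similar in both MLN libraries, although *Mx1*, *Gbp2* and *Gbp3* were higher in replicate 2. Without MLN replicate 2 the median was -1.15 and 41 of 46 genes lay on the MLN side, although 0 were called with 1 MLN library left. With the GC class as a term 1 was called and the median was -0.57. An interferon response element (TTTC and TTTC around any 2 bases, either strand) stood within the 250 bases before the start in 7.92% of 379 promoters of MLN-high genes, in 3.11% of 161 promoters of spleen-high genes and in 2.75% of the 10093 promoters. NF-kB sites (GGGA and TTTCC around any base, either strand) stood in 1.32%, 1.24% and 0.406%, and the Rbpj core in 24.8%, 19.3% and 20.6%, in the same order. These are counts of letters, with no test.

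Of 44 tested pattern recognition receptors 7 were higher in MLN, among them the endosomal *Tlr3*, *Tlr11*, *Tlr12* and *Tlr13*, and 2 in spleen. In this list 0 were called with the GC class as a term, and without MLN replicate 2 only 1 of the list was called, higher in MLN. *Tlr11*, which detects profilin of parasites, had 207, 313 and 412 normalized counts in spleen and 804 and 2426 in MLN (log2 fold change -2.38 ± 0.48, adjusted p = 0.015). The paper reports *Tlr3*, *Tlr11* and *Tlr12* as exclusive to cDC1s among its subsets, and *Tlr3* is in the cDC1 list described further on. The part of cDC1s in these calls was not tested. *Cd14*, the co-receptor for lipopolysaccharide, had 1068, 817 and 929 in spleen and 169 and 82 in MLN (log2 fold change 2.90 ± 0.47, adjusted p = 0.0056), and *Cd209b*, a C-type lectin of the marginal zone, had 654, 468 and 375 in spleen and 157 and 68.7 in MLN (log2 fold change 2.14 ± 0.41, adjusted p = 0.012). The list of chemokine and positioning receptors held 34 tested genes, with 3 called higher in spleen and 6 higher in MLN. In it *Cxcr4* was higher in spleen at 1951, 2450 and 2475 in spleen and 1012 and 941 in MLN (log2 fold change 1.23 ± 0.32, adjusted p = 0.041), and *Ccr1* in MLN at 148, 213 and 93.5 in spleen and 938 and 506 in MLN (log2 fold change -2.25 ± 0.47, adjusted p = 0.016). These 2 genes were called in 8 and 10 of 15 alternatives. With the GC class as a term their log2 fold changes were 1.43 and -1.52 (adjusted p = 0.18 and 0.30). *Cyp7b1* and *Hsd3b7*, the enzymes that make and break down the oxysterol ligand of the Ebi2 receptor, were both higher in MLN. *Cyp7b1* had 17.6, 0 and 8.22 in spleen and 42.8 and 366 in MLN (log2 fold change -4.56 ± 1.16, adjusted p = 0.04), and *Hsd3b7* had 0, 0 and 0 in spleen and 4.66 and 22.9 in MLN (at least 4.69-fold higher in MLN, adjusted p = 0.021). Of 41 cholesterol synthesis, SREBP and LXR genes 4 were higher in MLN (*Idi1*, *Tm7sf2*, *Hmgcs1* and *Sqle*, with log2 fold changes of -2.97, -2.37, -1.69 and -1.61). The calls of these 4 genes, *Cyp7b1* and *Hsd3b7* were lost without MLN replicate 2, at -1.31, -1.39, -0.72, -1.03, -2.30 and -5.24.

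Of 17 tested iron and haem genes 3 were called, all higher in spleen, and 12 of 17 lay on the spleen side (median log2 fold change 0.59). With the GC class as a term 1 was called. *Hmox1*, which degrades haem, had 749, 829 and 885 normalized counts in spleen and 32.6 and 117 in MLN (log2 fold change 3.45 ± 0.51, adjusted p = 0.0038), and its call held under all 15 alternatives. *Slc40a1*, the iron exporter ferroportin, had 510, 616 and 376 in spleen and 21.4 and 87.8 in MLN (log2 fold change 3.20 ± 0.62, adjusted p = 0.012). *Trf*, the iron carrier transferrin, had 1064, 779 and 654 in spleen and 298 and 151 in MLN (log2 fold change 1.89 ± 0.39, adjusted p = 0.017). *Tgfbi*, a TGF-beta-induced matrix protein, was also higher in spleen at 9281, 8677 and 8964 in spleen and 2554 and 758 in MLN (log2 fold change 2.44 ± 0.49, adjusted p = 0.014), as was *Fcgr4*, an activating antibody receptor, at 899, 747 and 873 in spleen and 138 and 64.9 in MLN (log2 fold change 3.05 ± 0.67, adjusted p = 0.022). Of 16 monocyte and macrophage markers *Hmox1* was the 1 called, and their sum was 949 to 1050 CPM in spleen and 603 and 863 in MLN.

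The genes with the largest fitted differences in favour of spleen included several of other blood cells. *Mpo*, the neutrophil granule enzyme myeloperoxidase, had 365, 231 and 293 normalized counts in spleen and 0 and 0 in MLN (at least 105-fold higher in spleen, adjusted p = 0.0026). *Ngp*, *Camp* and *Elane*, also made by neutrophil precursors, had 685, 820 and 586 in spleen and 1.86 and 4.77 in MLN for *Ngp* (log2 fold change 7.67 ± 1.92, adjusted p = 0.04), 224, 210 and 307 in spleen and 0 and 3.82 in MLN for *Camp* (log2 fold change 6.94 ± 1.81, adjusted p = 0.043) and 132, 122 and 130 in spleen and 1.86 and 0 in MLN for *Elane* (ratio 136, counting interval 37.3 to 1125, adjusted p = 0.014). Of 11 tested neutrophil and granulocyte markers 6 were called higher in spleen, and the sum of the list was 109 to 120 CPM in spleen and 15.1 and 18.3 in MLN. *Hbb-bs*, a beta globin, had 162, 167 and 194 in spleen and 5.59 and 6.68 in MLN (log2 fold change 4.80 ± 0.64, adjusted p = 0.0021), and *Hbb-bt*, *Hba-a1* and *Hba-a2* were called with it. The alpha globin genes are near-identical copies of each other, as are the beta globin genes, so their reads may be split. *Gata1* and *Klf1*, master factors of red cell precursors, had 42.1, 71.4 and 39 in spleen and 0 and 0 in MLN for *Gata1* (at least 18-fold higher in spleen, adjusted p = 0.032) and 56.9, 79.8 and 26.7 in spleen and 0 and 0.954 in MLN for *Klf1* (ratio 118, counting interval 20.8 to 4666, adjusted p = 0.032). *Car1*, a carbonic anhydrase of red cells, had 475, 644 and 570 in spleen and 0 and 2.86 in MLN (ratio 399, counting interval 136 to 1938, adjusted p = 0.0021). These transcripts were present in all 3 spleen libraries and at or near 0 in both MLN libraries. *Mpo*, *Elane*, *Car1* and *Hbb-bs* were called higher in spleen in T-bet- cDC2s and cDC1s as well, and *Ngp* and *Camp* in T-bet- cDC2s. With the GC class as a term 1 of the 11 neutrophil markers was called, and 1 without MLN replicate 2. *Car2*, another carbonic anhydrase of the red cell list, was higher in MLN at 796, 757 and 866 in spleen and 4842 and 23917 in MLN (log2 fold change -4.16 ± 0.54, adjusted p = 0.0021).

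The remaining genes with the largest spleen-side differences were of mixed function. *Lcn2*, an iron-sequestering granule protein, had 100, 106 and 141 normalized counts in spleen and 0 and 0 in MLN (at least 40.9-fold higher in spleen, adjusted p = 0.024). *Coch* had 124, 14.8 and 53.4 in spleen and 0 and 0 in MLN (at least 22.7-fold higher in spleen, adjusted p = 0.012), and *Cd5l*, a secreted protein of macrophages, had 169, 78.9 and 120 in spleen and 0 and 6.68 in MLN (log2 fold change 5.15 ± 1.18, adjusted p = 0.026). *Usp2*, a deubiquitinase with a daily rhythm, had 904, 1048 and 472 in spleen and 31.7 and 8.59 in MLN (log2 fold change 5.32 ± 0.80, adjusted p = 0.0041). *Slc25a33*, a mitochondrial pyrimidine transporter, had 2168, 1158 and 665 in spleen and 28.9 and 11.4 in MLN (log2 fold change 6.03 ± 1.17, adjusted p = 0.012), and *Pxdc1* had 4245, 3445 and 2483 in spleen and 87.5 and 55.3 in MLN (log2 fold change 5.57 ± 1.11, adjusted p = 0.014). *Igha*, the constant region of IgA antibodies, varied among the spleen libraries, at 2586, 1040 and 6038 in spleen and 1.86 and 13.4 in MLN (log2 fold change 8.71 ± 2.11, adjusted p = 0.033), and was the only 1 of 8 tested plasma cell markers called. Of these genes *Usp2* kept its call with the GC class as a term (log2 fold change 5.60).

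**Figure D4:**
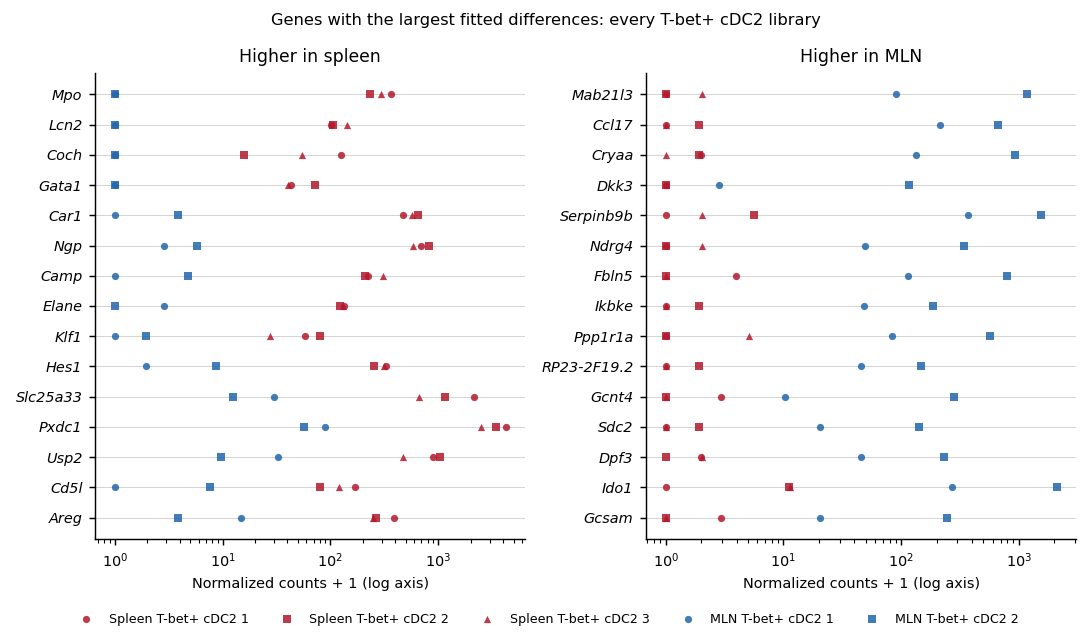
Normalized counts plus 1 (log axis) in each T-bet+ cDC2 library of the 15 genes with the largest fitted differences in each direction. No overlap between spleen libraries (red) and MLN libraries (blue) was a condition for choosing these 30 genes. MLN replicate 2 (blue squares) is above replicate 1 (blue circles) for all 15 genes on the right.

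The largest differences in favour of MLN held several genes that were nearly silent in spleen. *Mab21l3* had 0, 0 and 1.03 normalized counts in spleen and 89.4 and 1162 in MLN (ratio 1902, counting interval 341 to 75170, adjusted p = 0.0021). *Cryaa*, a small heat shock protein first known from the eye lens, had 0.98, 0.928 and 0 in spleen and 133 and 920 in MLN (ratio 801, counting interval 221 to 6623, adjusted p = 0.0037). *Serpinb9b*, an inhibitor of granzyme-like proteases, had 0, 4.64 and 1.03 in spleen and 366 and 1543 in MLN (log2 fold change -8.85 ± 1.25, adjusted p = 0.0029). *Fbln5*, an extracellular matrix protein, had 2.94, 0 and 0 in spleen and 114 and 797 in MLN (ratio 462, counting interval 158 to 2243, adjusted p = 0.0062), and *Ikbke*, a kinase of the interferon and NF-kB pathways, had 0, 0.928 and 0 in spleen and 47.5 and 184 in MLN (ratio 353, counting interval 62.8 to 14000, adjusted p = 0.0065). *Mab21l3* kept its call under all 15 alternatives, and *Cryaa* and *Serpinb9b* under 14, losing it only with the GC class as a term. *Ppp1r1a* had 0, 0 and 4.11 in spleen and 81.9 and 566 in MLN (log2 fold change -7.81 ± 1.30, adjusted p = 0.0087), and *Ndrg4* had 0, 0 and 1.03 in spleen and 48.4 and 343 in MLN (ratio 595, counting interval 106 to 23550, adjusted p = 0.0079). *Sdc2*, *Dpf3*, *Gcnt4*, *Dkk3*, *Gcsam* and the clone-named RP23-2F19.2 completed the group, with adjusted p of 0.01, 0.013, 0.015, 0.016, 0.0045 and 0.0021. *Dkk3* and *Gcnt4* rested on MLN replicate 2, where they had 115 and 279 normalized counts against 1.86 and 9.31 in replicate 1.

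Markers of other lymph node cells were higher in MLN in part. Of 12 tested cDC1 markers 4 were called (*Clec9a*, *Tlr3*, *Itgae* and *Gcsam*), with a median log2 fold change of -1.67, while the sum of the list was 660 to 815 CPM in spleen and 840 and 983 in MLN. Without MLN replicate 2, 0 were called and the median was 0.00028. *Clec9a*, the dead-cell receptor of cDC1s, had 1.96, 6.5 and 1.03 normalized counts in spleen and 6.52 and 217 in MLN (log2 fold change -5.06 ± 1.10, adjusted p = 0.021). Of 12 tested T cell markers 3 were called (*Cd3g*, *Cd247* and *Il7r*), with sums of 56.0 to 66.5 CPM in spleen and 132 and 351 in MLN. *Cd3g* was at 0 in spleen and at 10.2 and 54.4 in MLN (at least 11-fold higher in MLN, adjusted p = 0.025). Of 14 stromal and endothelial markers *Col3a1*, a fibroblast collagen, was called, with 851 normalized counts in MLN replicate 2 and 0 in the other 4 libraries. Of 14 B cell markers 1 was called (*Bank1*, higher in spleen), with sums of 969 to 1130 CPM in spleen and 842 and 983 in MLN. Among 13 tested T-bet- cDC2 markers *Cd14* was called higher in spleen and *Mgl2* higher in MLN. In that list 8 of 13 lay on the MLN side (median log2 fold change -0.56), with sums of 1990 to 2710 CPM in spleen and 2750 and 4170 in MLN. The part of these cells, of the granulocytes and of the red cells in the results above was not tested.

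Several programs gave no call. None of 25 tested MHC class II presentation genes, 46 cell cycle and replication genes, 16 heat shock genes or 12 plasmacytoid DC markers passed the test in either direction, with lowest adjusted p of 0.083 (*Rfxap*), 0.058 (*Cdt1*), 0.052 (*Chordc1*) and 0.051 (*Spib*). At an unadjusted p under 0.05 they held 9, 7, 1 and 3 genes, and DESeq2 called 1, 3, 1 and 3. The median log2 fold changes were 0.33, 0.08, 0.53 and -0.31. With an SE that reached 1.284 for *Rfxap*, which had 453, 310 and 358 in spleen and 22.4 and 25.8 in MLN, these data do not show that such genes are level. The X-inactivation transcript *Xist* was present in all 5 libraries and higher in MLN, at 3999, 4094 and 4089 in spleen and 7470 and 8747 in MLN (log2 fold change -0.9977 ± 0.25, adjusted p = 0.039). It was called in 8 of 15 alternatives and lost its call without any single spleen library. Its log2 fold change was -0.40 with the GC class as a term (adjusted p = 0.56) and -0.87 without MLN replicate 2.

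The tissue difference of T-bet+ cDC2s was then set beside that of the other subsets, which were measured in other libraries. Of the 219 spleen-high genes, 211 (96.3%) had the same direction in T-bet- cDC2s and 84 were called there, and 204 (93.2%) had it in cDC1s with 108 called. Of the 636 MLN-high genes, 611 (96.1%) had the same direction in T-bet- cDC2s with 296 called, and 583 (91.7%) in cDC1s with 319 called. Of all genes 51.8% lay on the spleen side and 47.9% on the MLN side in T-bet- cDC2s, and 48.0% and 50.6% in cDC1s. In T-bet- cDC2s 1.59% of all genes were called higher in spleen and 4.36% higher in MLN, and in cDC1s 3.93% and 7.75%. In all 3 subsets 59 spleen-high and 230 MLN-high genes were called the same way. Over all genes the log2 fold changes had a Spearman's rho of 0.65 with T-bet- cDC2s and 0.58 with cDC1s, as a description of libraries that share a tissue and, in part, the GC property. *Ccl22* had log2 fold changes of -4.05 and -4.00 in T-bet- cDC2s and cDC1s, and *Aldh1a2* of -5.56 and -7.13.

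In the main fit few genes passed the test for a tissue difference that itself differed between subsets. DESeq2 gave 39 against T-bet- cDC2s and 234 against cDC1s, more than the main fit described here. Against T-bet- cDC2s 1 gene passed the test of the difference (0.00595%), *Gpr4*, which was 3.48 ± 0.45 (SE) higher on the log2 scale in T-bet+ cDC2s (adjusted p = 0.027), with 847 genes at an unadjusted p under 0.05. The call was lost under the GC offset, with or without the replicate block, with the GC class as a term, with the compared libraries alone, and without any single library other than spleen replicate 3. Its direction was reversed in the T-bet- subset, which had 349, 245 and 247 normalized counts in spleen and 985 and 766 in MLN. Against cDC1s 15 genes passed (0.0893%). *Adgrl3*, an adhesion receptor, had 2092, 1870 and 1697 in spleen and 1496 and 823 in MLN in T-bet+ cDC2s, while it was at 446, 597 and 937 in spleen cDC1s and at 4.02, 0 and 3.60 in MLN cDC1s (difference -7.21 ± 0.69, adjusted p = 7.8e-04). *Gp2*, a receptor for bacterial pili, had 809, 689 and 263 in spleen and 870 and 426 in MLN in T-bet+ cDC2s and means of 1906 ± 392 (SD, n = 3) and 21.3 ± 13.0 in spleen and MLN cDC1s (-6.60 ± 0.85, adjusted p = 0.010). *Pdcd1lg2*, which encodes the checkpoint ligand PD-L2, had 834, 902 and 1032 in spleen and 1235 and 2264 in MLN in T-bet+ cDC2s and means of 53.2 ± 24.4 and 2960 ± 1528 in spleen and MLN cDC1s (4.88 ± 0.68, adjusted p = 0.018). *Clec4b2* and *Sh3pxd2b* were higher in MLN T-bet+ cDC2s, with 0, 0 and 3.08 in spleen and 37.2 and 29.6 in MLN for *Clec4b2* and 0.98, 5.57 and 6.16 in spleen and 29.8 and 81.1 in MLN for *Sh3pxd2b*, and differed from cDC1s by -8.44 ± 1.08 and -4.41 ± 0.63 (adjusted p = 0.010 and 0.020). *Dtx1*, which is near 0 in cDC1s, differed by 4.28 ± 0.73 (adjusted p = 0.046).

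**Figure D5:**
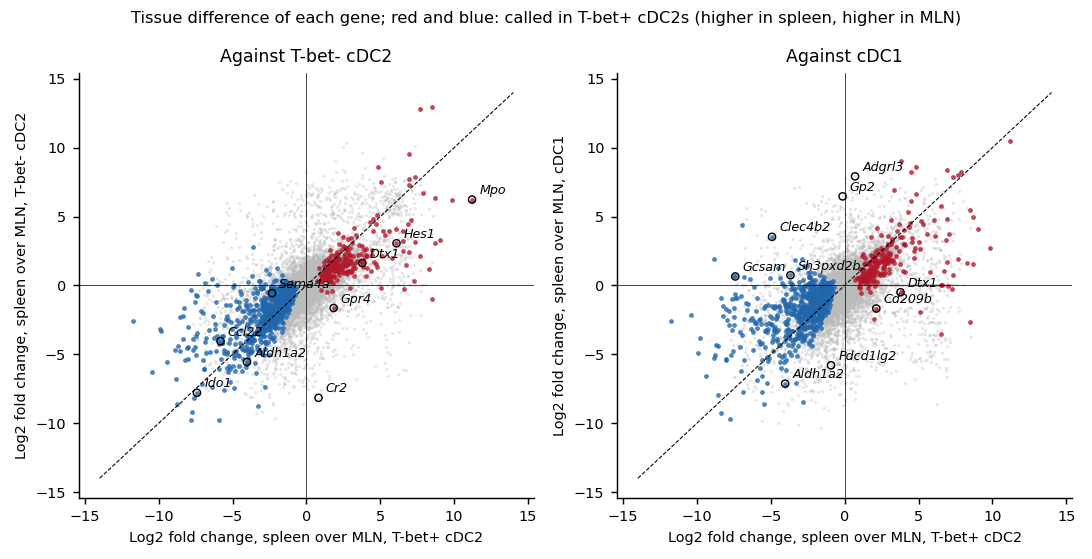
Log2 fold change between spleen and MLN of each gene in T-bet+ cDC2s (x axes) against that in T-bet- cDC2s (left) and cDC1s (right), with genes called in T-bet+ cDC2s in red (higher in spleen) and blue (higher in MLN) and a dashed line of equality. Most coloured genes have the same direction in the other subset (611 of 636 and 211 of 219 on the left), while *Gpr4* on the left and *Adgrl3*, *Gp2*, *Clec4b2* and *Cd209b* on the right lie away from the line.

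Chromatin was measured in the spleen alone, in 2 ATAC-seq libraries for each subset. A summit window of 150 bases lay within 1000 bases of an annotated transcript start for 48.3% of 205 spleen-high genes, 52.0% of 510 MLN-high genes and 46.4% of 12408 genes not called. The median summed coverage of these windows in splenic T-bet+ cDC2s was 57.7 CPM for spleen-high, 39.3 for MLN-high and 52.9 for other genes, and 59.7, 42.8 and 52.9 in splenic T-bet- cDC2s. The window near the *Gpr4* start had 10.3 and 8.87 CPM in the T-bet+ libraries, 2.40 and 1.83 in the T-bet- libraries, and 8.66 and 9.63 in those of cDC1s. The 9 windows near *Tbx21* starts summed to 27.4 and 23.6 CPM in T-bet+ cDC2s against 11.1 and 14.3 in T-bet- cDC2s. Only 2 libraries a group were available, so no test was made.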

How the data were processed

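RNA was measured in 16 libraries of sorted DCs, with 3 spleen and 2 MLN libraries of T-bet+ cDC2s. The authors amplified RNA with a SMARTer kit, aligned reads to mm10 with HISAT2 2.1.0, kept unique alignments and deposited raw read counts per gene of GENCODE vM17. Whether counting used strand is not given in the sources used here, so overlapping and antisense genes may share reads. For ATAC-seq of spleen, the authors aligned with Bowtie2 2.2.5, shifted reads for the transposase offset, called peaks on all replicates together with MACS2 2.1.1.20160309 and deposited counts in 177956 windows around summits, with 7270164 to 10081555 reads per library. Window positions, deposited as other values, gave the distance to transcript starts. The deposited counts per whole peak were not used. The sequencer is given differently in labels and methods, and 1 sentence of the methods exchanges RFP+ and RFP- cells, so the labels were followed.

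All RNA counts were fitted with edgeR 4.0.16 in R 4.3.3 (quasi-likelihood test, 6 groups, TMM scaling, default filter on low counts, no covariates). All 16 libraries entered the fit, which left 10 residual degrees of freedom, while the 5 T-bet+ libraries alone leave 3. P-values were adjusted by Benjamini and Hochberg over all 16795 genes tested, at a threshold of 0.05. A change of the tissue difference between subsets was tested as an interaction. Each library is a pool from a pair of mice, the RNA-seq was carried out once, and p-values measure the spread between these pools. A tissue at 0 in all libraries was set to a floor of 3 counts per library to give a lower bound of the fold. Totals of 1 to 3 counts were given as a ratio with an exact 95% interval. No libraries had identical counts.

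Named genes were the 4 markers, in each direction the 15 called genes with the largest fold at a mean of at least 50 normalized counts in the higher tissue and no overlap (leaving out Gm, Rik, pseudogene and receptor-segment symbols), up to 4 called genes per direction of each of 39 lists (the pair with the lowest p where none was called), and up to 5 genes per interaction test. The members and lists were chosen with earlier results of these data known. Promoters came from RefSeq (GRCm38.p6), with 10093 tested genes matched by symbol, and GC content and transcript starts from GENCODE M21, with 13123 matched. Alternatives were DESeq2 1.42.0, its size factors in edgeR, no filter, the compared libraries alone, the replicate number as a block, a GC offset, both together, the GC class of each library as a term (a rho above 0.1 against the rest), a newer dispersion estimate, a threshold of 0.01 and leaving out each library. A fit of the 5 libraries with the scaling of all 16 was chosen after seeing the data.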

Additional observations from a re-analysis of the deposited data

Results flagged for a closer look

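The results below are genes whose difference between spleen and MLN in T-bet+ cDC2s differed from that in another subset by the interaction test of edgeR, given as the difference of log2 fold changes with its adjusted p. Against T-bet- cDC2s this was *Gpr4* (3.48, adjusted p = 0.027), where the log2 fold change was 1.84 with T-bet and -1.64 without it. This call was lost under both GC offset fits, with the GC class as a term, with the compared libraries alone, and without any single library other than spleen replicate 3. Against cDC1s it was *Adgrl3* (-7.21, adjusted p = 7.8e-04), *Clec4b2* (-8.44, 0.010), *Gp2* (-6.60, 0.010), *Pdcd1lg2* (4.88, 0.018), *Sh3pxd2b* (-4.41, 0.020) and *Dtx1* (4.28, 0.046), whose levels are given above.

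The other genes of the test against cDC1s follow. *Cd209b* differed by 3.82 (adjusted p = 0.024), with log2 fold changes of 2.14 in T-bet+ cDC2s and -1.68 in cDC1s. *Olfm1*, a secreted protein of neurons, differed by -4.80 (adjusted p = 0.046) in the opposite manner, at -2.91 and 1.88. *Pde1b*, a cyclic nucleotide phosphodiesterase, differed by -3.35 (adjusted p = 0.035), and *Igsf6* by -2.22 (adjusted p = 0.045). *Gcsam* and *Ifi205*, both abundant in cDC1s of either tissue, differed by -8.06 and -4.10 (adjusted p = 0.045 for both). *Gfod2* differed by -6.04 (adjusted p = 0.046), on a mean of 0.327 normalized counts in spleen and 31.9 in MLN T-bet+ cDC2s. *Oas1a*, an interferon-induced enzyme, differed by 2.92 (adjusted p = 0.041) and *St14*, a membrane protease, by 4.12 (adjusted p = 0.044), since both were higher in MLN in cDC1s and not called in T-bet+ cDC2s.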

How the results depend on the processing

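The counts of called genes depended strongly on the test. All 855 called genes kept their direction under DESeq2, the replicate block and the GC class of the libraries as a term. Such kept directions add little, since nearly all called genes had no overlap between the libraries of the 2 tissues. Main counts were 219 genes higher in spleen, 636 higher in MLN, 1 that differed from T-bet- cDC2s and 15 that differed from cDC1s. In the same order, DESeq2 gave 1072, 1632, 39 and 234, and no filter on low counts gave 1402, 1473, 186 and 475. The compared libraries alone gave 1651, 1286, 0 and 3, and with the scaling of all 16 libraries 1541 and 1121. The GC offset gave 389, 908, 0 and 34, the GC class as a term 21, 42, 0 and 21, and the newer dispersion estimate 441, 997, 1 and 14. A threshold of 0.01 gave 34, 102, 0 and 1. DESeq2's size factors gave 226, 763, 1 and 22. Leaving out 1 library gave 10 to 222, 26 to 904, 0 to 3 and 5 to 59, the lowest of the first pair without MLN replicate 2. Without spleen replicate 1, 2 or 3 the first pair was 51 and 127, 68 and 163, and 86 and 202. Beyond the alternatives that use fewer libraries or genes, the cause was not tested.

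Whether the replicate numbers pair the libraries could not be told from the counts. Deviations from group means correlated at 0.079 between the first replicates and at -0.085 between the second. With 2 MLN libraries the deviations mirror each other, so each spleen library correlates with them at equal values of opposite sign. The replicate block gave 147, 480, 1 and 7 genes, and together with the GC offset 258, 749, 0 and 20.

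Among named genes not called in the main fit, *Gp2* (-0.14, and -0.56 to 0.42 without 1 library) turned to 0.077 under the GC offset with replicate block, 0.36 with the GC class, 0.42 without MLN replicate 1 and 0.21 without spleen replicate 3. *Ccr7* (-0.22, and -0.90 to 0.98 without 1 library) turned to 0.24 with the GC class and 0.98 without MLN replicate 2, and *Notch2* (0.41) to -0.17 under the GC offset, -0.0453 with the block added and -0.30 with the GC class. For called named genes, 1316 of the values under an alternative stayed past the threshold and 476 did not, all in the same direction. *Col3a1* without MLN replicate 2 has no value. With 2 MLN libraries that differ from each other, differences of a moderate size could be missed.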
